A study of Rattus norvegicus with 12 samples.

Results

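The genes described here encode actin, the proteins that assemble, branch, crosslink and pull on actin filaments, the proteins of integrin adhesions, and serum response factor (Srf) with the LIM proteins that act beside it. They were named as a list of 39 gene symbols. That list, like the other gene lists used below, was chosen with earlier results of these data known. Responses of a list set beside those of all genes therefore describe it and are no independent test. Each gene is represented by its brightest probe set among those that the array annotation assigns to exactly 1 symbol. Of the 39, 37 had such a probe set, and all 37 were bright enough to test among 9906 genes. Beta-actin (Actb) and cofilin (Cfl1) share their probe sets with other symbols and were not among the 37. The cells were smooth muscle cells of the aorta of newborn rats in primary culture, grown in serum and then kept overnight in serum-free medium with albumin, and RNA was measured on 12 Affymetrix arrays in 6 groups of 2. A pair of arrays measured cells exposed to 2 U/ml thrombin for 120 min, another pair cells exposed to 25 µM TRAP (a thrombin receptor-activating peptide) for 120 min, and a further pair cells exposed to 25 µM TRAP for 120 min after 24 h with 200 ng/ml pertussis toxin (PTX), which uncouples Gi proteins from their receptors. Each of these groups has its own pair of basal arrays of unstimulated cells. The labels give no agent for any basal array, so it is not stated that the basal arrays of the toxin experiment had received the toxin. Nor do the labels tell whether the arrays of a pair stand for independent cultures, and p-values here measure no more than the spread between the arrays.

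Thrombin cleaves protease-activated receptors, which signal through several classes of G protein. In smooth muscle cells their activation is known to lead to actin polymerisation, myosin contraction and the growth of focal adhesions. Polymerisation uses up monomeric actin, which releases the cofactor MRTF to bind Srf on DNA elements called CArG boxes, and many genes for actin-binding and adhesion proteins, Srf itself included, are known targets of this route.

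The median signal lay between 39.5 and 40.4 on the 4 arrays of the thrombin experiment and between 43.4 and 53.4 on the others, and the correlation of log2 signals within a pair lay between 0.983 and 0.991. The 3′ to 5′ signal ratio of the control probe sets, a measure of RNA integrity, lay between 1.28 and 1.50 for beta-actin. For GAPDH it lay between 1.06 and 1.10 in the thrombin experiment and between 1.11 and 1.18 in the others, so that neither the median signal nor this ratio overlapped. All 10 listed smooth muscle contractile markers were bright enough to test, against 1 of the 7 measured endothelial markers, whose summed signal lay between 52.5 and 159.5 on every array. The arrays did not sort fully by label. Saa3, an acute-phase gene, lay between 15.9 and 22.8 on TRAP replicate 2 together with its 2 basal arrays and on replicate 1 of TRAP after PTX. It lay between 222.5 and 420.9 on replicate 2 of TRAP after PTX together with the 2 basal arrays of that experiment and on TRAP replicate 1. The first replicate of each TRAP group therefore lay apart from their own basal arrays in this gene, and results of these experiments are also given without that pair of arrays. On the 4 arrays of the thrombin experiment Saa3 lay between 33.0 and 39.8.

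After thrombin the Srf transcript rose 2.44-fold, and with it rose Fhl2 and Ankrd1, the actin-elongation genes Vasp, Enah, Diaph1 and Baiap2, and the adhesion genes Itga5, Zyx and Kank1. In all, 13 of the 37 genes (35.1%) were higher and 0 were lower after thrombin by limma's moderated test at an adjusted p of 0.05, against 2.97% higher and 2.65% lower among all genes tested. After TRAP 5 of 37 (13.5%) were higher and 0 lower, against 2.15% and 1.81% of all genes. After TRAP in toxin-treated cells 3 of 37 (8.11%) were higher and 0 lower, against 1.69% and 1.27%. At an unadjusted p under 0.05 the counts were 20, 12 and 7 higher and 0 lower in each. Here and below, no share of all genes is given at this unadjusted threshold, so such counts have no background. Baiap2 and Kank1 were higher in all 3 experiments, as were 0.747% of all genes, and 15 of the 37 were higher in at least 1 experiment, against 4.39%. Those of the 37 genes that encode actin itself, tropomyosin, myosin, filamin and the actin-capping, actin-branching and monomer-binding proteins passed the threshold in none of the 3 responses. Genes of these kinds outside the 37 are given below.

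Most of the 37 genes lay above zero without passing the test. The response was above zero in 35 of 37 genes after thrombin, in 33 after TRAP and in 32 after TRAP in toxin-treated cells. Among all genes tested the shares above zero were 38.9%, 44.1% and 42.1% in the same order. The median log2 change of the 37 was 0.24 after thrombin, 0.15 after TRAP and 0.14 after TRAP with toxin, and over all genes it was -0.06, -0.03 and -0.04. Both thrombin arrays lay above both of their basal arrays in 29 of 37 genes, against 17.7% of all genes, and below in 0, against 33.3%. For TRAP the count above was 21 (19.7% of all genes) with 2 below (29.3%), and for TRAP with toxin it was 20 (16.8%) with 2 below (28.8%). After centring every array on its own median, the medians of the 37 became 0.29, 0.22 and 0.21, and with quantile normalization 0.24, 0.08 and 0.08.

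**Figure D1:**
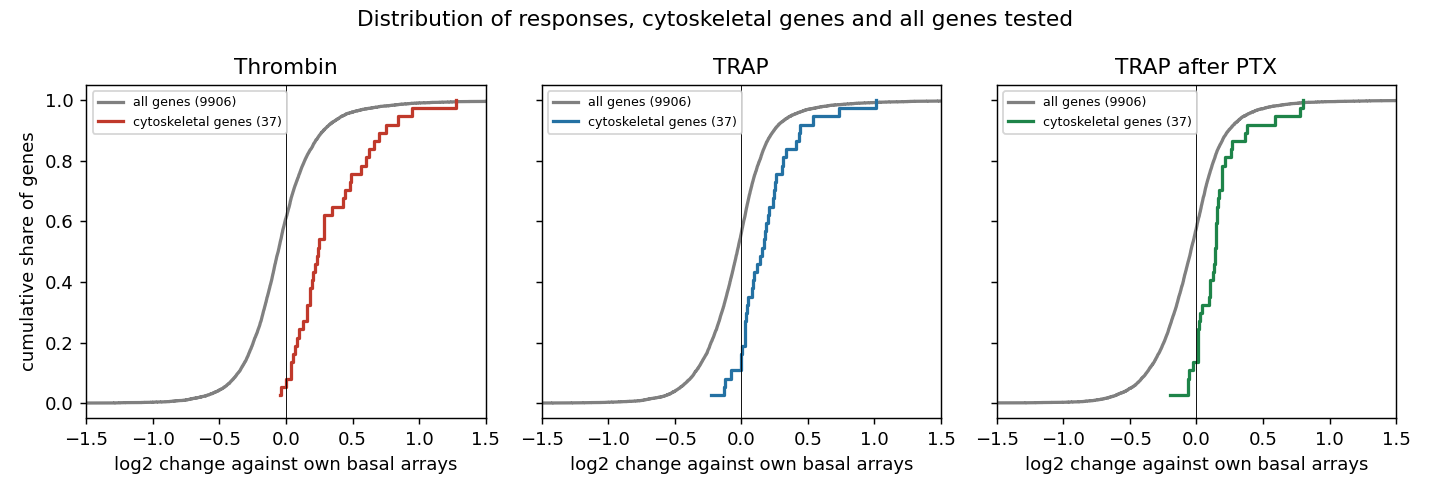
Cumulative share of genes (vertical axis) with a log2 change against their own basal arrays up to the value on the horizontal axis, for the 37 cytoskeletal genes (coloured) and all 9906 genes tested (grey), in the 3 experiments. The coloured curve lies to the right of the grey curve over most of its range, with medians of 0.24 against -0.06 after thrombin, 0.15 against -0.03 after TRAP and 0.14 against -0.04 after TRAP with toxin.

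The transcriptional regulators and LIM cofactors held the largest thrombin response of the 37 genes, that of Srf: 4 of these 6 genes rose after thrombin, 1 after TRAP and 0 after TRAP with toxin, where 1 had an unadjusted p under 0.05 (limma). Srf, the CArG box-binding factor, had signals of 704.1 and 862.8 on the basal arrays of the thrombin experiment and 1931 and 1898.4 after thrombin. In the TRAP experiment it had 629.7 and 603.5 before and 933.6 and 876.2 after the peptide, and in the toxin experiment 803.5 and 690.4 before and 853.9 and 855.4 after. The stimulated arrays lay above their basal arrays in all 3 experiments, and both thrombin arrays lay above every other array. The log2 change was 1.28 ± 0.11 (SE, adjusted p = 1.35e-05, limma) after thrombin and 0.54 ± 0.11 (adjusted p = 0.0122, limma) after TRAP, and the change of 0.19 ± 0.11 after TRAP with toxin did not pass the test (adjusted p = 0.387, limma). The TRAP call of Srf was lost without TRAP replicate 1 (0.50, adjusted p = 0.0811), without basal TRAP replicate 1 (0.57, 0.0822), without basal TRAP replicate 2 (0.51, 0.114) and without the pair of arrays named above (0.50, 0.101), and as the mean of its probe sets it was 0.39 (0.0507), all by limma.

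Fhl2, a LIM-only protein that binds Srf and integrins, rose after thrombin and not after the peptide. Its signal was 1363.9 and 1405.1 on the basal arrays and 2207 and 2309.8 after thrombin. After TRAP it was 1610 and 1547.6, from 1754.9 and 1701.5, and after TRAP with toxin 1505.8 and 1484, from 1541.8 and 1582.9. Both arrays of each TRAP group thus lay below their own basal arrays, while both thrombin arrays lay above every other array. The log2 change was 0.70 ± 0.08 after thrombin (adjusted p = 0.00021, limma), -0.13 ± 0.08 after TRAP and -0.06 ± 0.08 after TRAP with toxin. The other tested Fhl2 probe set gave 0.77 after thrombin (adjusted p = 0.000565, limma).

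Ankrd1, a muscle ankyrin repeat protein known to respond to mechanical load, went from 3674 and 3232.3 to 5898.9 and 4801.7 after thrombin, a log2 change of 0.62 ± 0.14 (adjusted p = 0.0222, limma). In the TRAP experiment it went from 1300.8 and 1509.3 to 1941.1 and 1613.7, and in the toxin experiment from 1483.9 and 1328.4 to 1626.2 and 2058.9. The arrays separated in each experiment, but the changes of 0.33 ± 0.14 and 0.38 ± 0.14 did not pass the test (adjusted p = 0.253 and 0.187, limma). The thrombin call was lost without thrombin replicate 1 (0.48, adjusted p = 0.214), without basal thrombin replicate 1 (0.72, 0.0554) and without basal thrombin replicate 2 (0.53, 0.101), by limma, while the other Ankrd1 probe set gave 0.83 (adjusted p = 0.00679, limma). Against all 6 basal arrays the Ankrd1 changes were 1.48, -0.10 and -0.05. Csrp1, a LIM protein of actin bundles in smooth muscle, went from 1900.8 and 2188.5 to 2558.5 and 2643.6 after thrombin. This change of 0.35 ± 0.09 lay at the threshold (adjusted p = 0.0492, limma), both thrombin arrays lay below the 2903.2 to 3051.2 of the other 4 basal arrays, and against all 6 basal arrays it was -0.01. Leaving out any 1 array other than basal thrombin replicate 2 ended the Csrp1 call, with changes of 0.25 to 0.37 (adjusted p of 0.0597 to 0.307, limma).

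Fhl1, the related LIM-only protein, and Tgfb1i1 (Hic-5), the LIM adaptor that resembles paxillin, were not called. Fhl1 went from 4785.8 and 4014 to 5523 and 4927.2 after thrombin, 0.25 ± 0.12 (adjusted p = 0.304, limma). Its second probe set gave 0.60 after thrombin (adjusted p = 0.00562, limma), and another, dim one, at a mean signal of 75.1, gave 0.99 after TRAP (adjusted p = 0.0424, limma) and 1.10 after TRAP with toxin (adjusted p = 0.0339, limma), so the probe sets of Fhl1 disagreed in the call. Tgfb1i1 changed by 0.20, 0.03 and 0.01 in the 3 experiments.

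The promoters are shown because Srf binds CArG boxes and these genes differed in their response. The RefSeq promoter table (GRCr8) held 35 of the 39 genes, in 41 windows that run from 250 bases before to 50 after a transcript's start. A CArG box was searched for as CC, then 6 bases that are each A or T, then GG, which reads as the same pattern on both strands. A box lay in the windows of 5 of the 35 genes (14.3%), against 1.52% of the tested genes with a window and 1.77% of all genes of the table. With 1 of the 6 middle bases allowed to be G or C, a match lay in 12 of 35 genes (34.3%), against 8.93% of the tested genes. The list holds Srf and other genes of kinds with many known Srf targets. These shares therefore describe the list and are no independent test. The windows with a box belong to Srf, Fhl1, Fhl2, Actg1 and Lima1. The 250 bases before the start are given here 5′ to 3′ on the gene's strand for Srf at chr9:21923826-21924075 (plus strand), for the upstream and downstream starts of Fhl2 at chr9:52954541-52954790 and chr9:52923327-52923576 (minus strand), and for Actg1 at chr10:106120952-106121201 (minus strand), with the CArG boxes in capitals:
Srf: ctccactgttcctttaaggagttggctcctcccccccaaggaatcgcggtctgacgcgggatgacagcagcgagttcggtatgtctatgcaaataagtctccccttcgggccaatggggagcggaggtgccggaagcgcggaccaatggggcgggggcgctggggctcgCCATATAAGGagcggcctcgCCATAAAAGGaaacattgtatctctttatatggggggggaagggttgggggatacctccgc
Fhl2 upstream start: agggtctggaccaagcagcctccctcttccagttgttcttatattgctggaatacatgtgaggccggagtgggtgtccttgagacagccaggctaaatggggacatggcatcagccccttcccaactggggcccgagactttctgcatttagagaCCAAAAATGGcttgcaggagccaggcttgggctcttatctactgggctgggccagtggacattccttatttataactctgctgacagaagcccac
Fhl2 downstream start: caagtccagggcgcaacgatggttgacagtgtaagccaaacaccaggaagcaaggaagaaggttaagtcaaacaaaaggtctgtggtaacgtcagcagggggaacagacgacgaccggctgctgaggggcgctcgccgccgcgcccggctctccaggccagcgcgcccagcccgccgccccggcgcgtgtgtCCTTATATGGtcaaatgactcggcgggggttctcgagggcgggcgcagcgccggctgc
Actg1: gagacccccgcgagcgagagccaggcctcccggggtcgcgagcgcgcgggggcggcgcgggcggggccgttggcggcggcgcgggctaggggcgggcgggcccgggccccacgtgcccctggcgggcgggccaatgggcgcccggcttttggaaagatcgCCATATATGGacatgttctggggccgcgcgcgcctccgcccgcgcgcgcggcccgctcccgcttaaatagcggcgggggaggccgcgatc
Srf holds CCATATAAGG and CCATAAAAGG, which begin 81 and 61 bases before the start. Fhl2 holds CCAAAAATGG beginning 95 bases before one start and CCTTATATGG beginning 58 bases before the other, and Actg1 holds CCATATATGG beginning 90 bases before its start. Lima1 holds CCATAAAAGG, which begins 209 bases before its start, and Fhl1 holds CCTAAAATGG, which begins 102 bases before its start. Srf and Fhl2 rose after thrombin, and the brightest probe sets of Fhl1, Actg1 and Lima1 did not pass the test in any response. Vasp, Enah, Diaph1, Baiap2, Csrp1, Filip1l and Pdlim5, which were also called after thrombin, had windows without a box. A match of these letters is a description of the window, not evidence that Srf binds there, and boxes outside the window were not searched for.

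**Figure D2:**
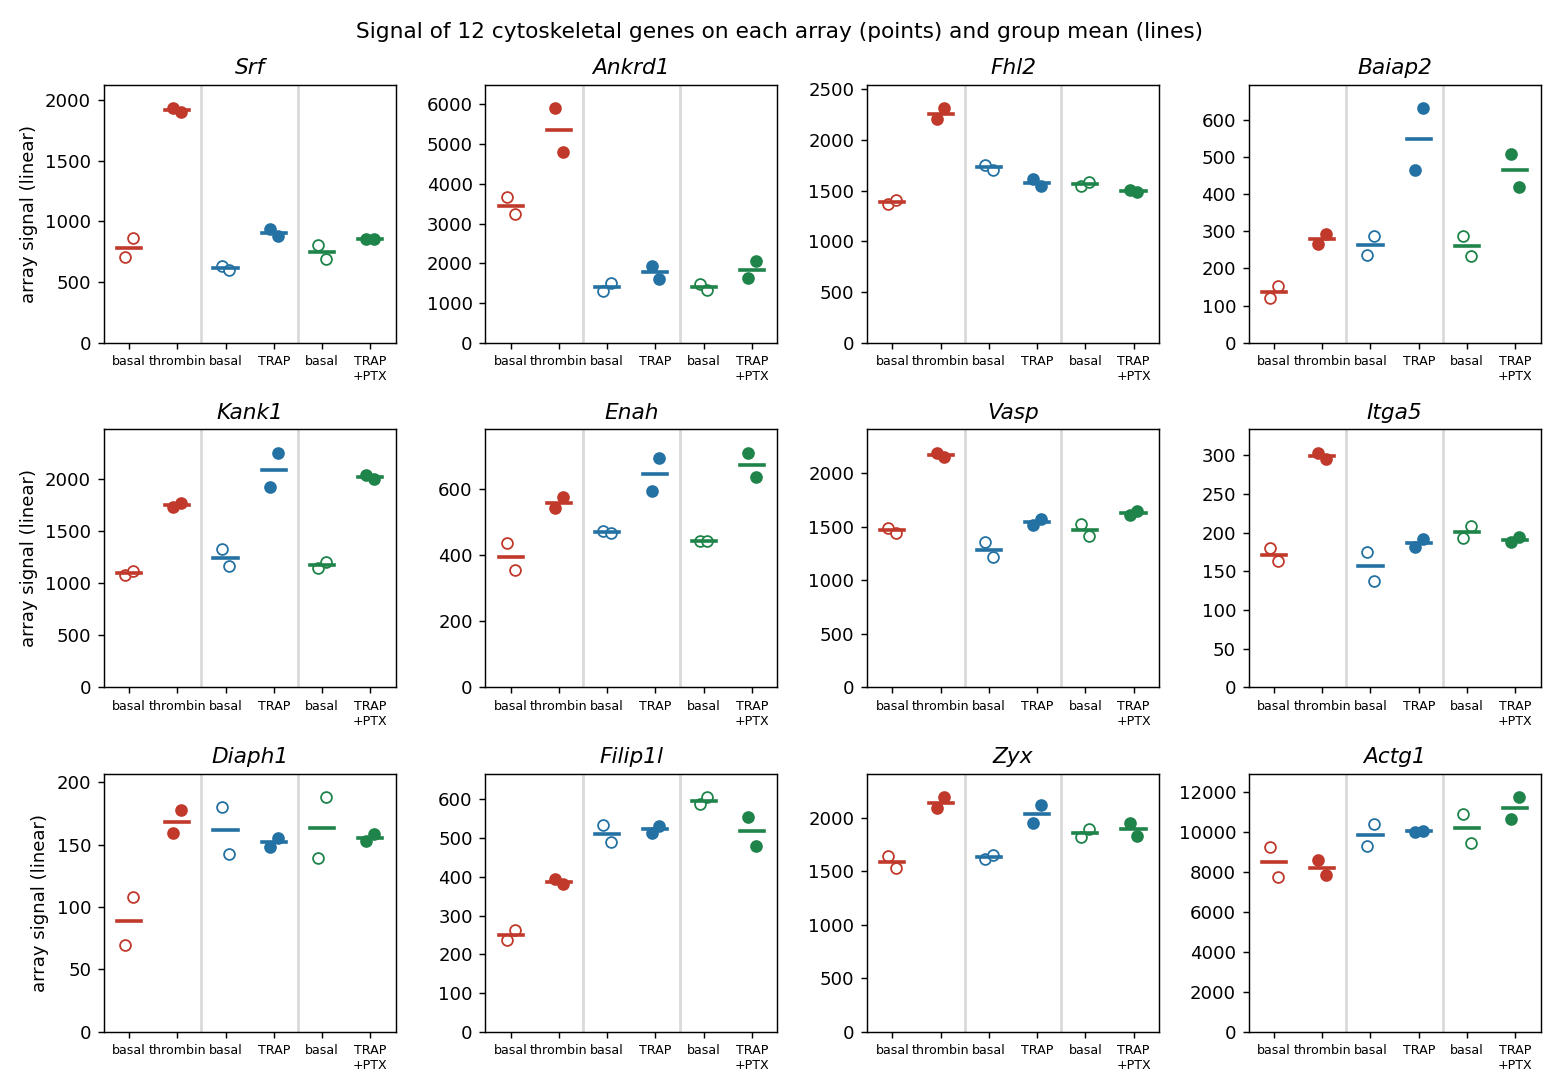
Array signal (linear scale from zero, vertical axis) of 12 cytoskeletal genes on each of the 12 arrays. Points are arrays (open for basal, filled for stimulated), lines are means of 2 arrays, and the panels are split into the thrombin, TRAP and TRAP after PTX experiments. Both thrombin arrays of Srf (1931 and 1898.4) and Fhl2 (2207 and 2309.8) lie above all their other arrays, Kank1 lies higher on the stimulated arrays of all 3 experiments, and Actg1 overlaps between stimulated and basal arrays in each.

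Among the 7 genes for nucleation, elongation and branching of filaments, 4 rose after thrombin, 1 after TRAP and 2 after TRAP with toxin. Baiap2 (IRSp53), which bends membrane and recruits actin regulators to it downstream of Rac and Cdc42, rose in every experiment. It went from 121.3 and 154.1 to 265.3 and 292.1 after thrombin, from 237.2 and 287.7 to 465.7 and 630.7 after TRAP, and from 286.8 and 232.7 to 508.3 and 419.5 after TRAP with toxin. Each stimulated pair lay above its own basal pair, although thrombin replicate 1 (265.3) lay below the highest basal arrays of the other experiments. The log2 changes were 0.95 ± 0.17 (adjusted p = 0.0049), 1.01 ± 0.17 (adjusted p = 0.00409) and 0.80 ± 0.17 (adjusted p = 0.0227), by limma. Without the pair of arrays named above the TRAP change was 1.22 (adjusted p = 0.00372, limma), and the change with toxin was 0.67 and no longer passed (adjusted p = 0.129, limma). The call was also lost without basal thrombin replicate 1 (0.79, adjusted p = 0.0639) or thrombin replicate 2 (0.88, 0.0582) for thrombin. The same held without basal TRAP replicate 1 (0.88, 0.0727) or TRAP replicate 2 (0.80, 0.0509) for TRAP, and without TRAP after PTX replicate 1 (0.67, 0.175) or its basal replicate 2 (0.66, 0.177) for TRAP with toxin, all by limma. Of its other probe sets, the second gave 0.51, 0.61 and 0.61 and the third, a dim one, gave -0.31 after thrombin, without passing the test there (adjusted p = 0.517, limma). With the mean of its probe sets the Baiap2 changes were 0.38 (adjusted p = 0.151), 0.69 (0.0206) and 0.51 (0.081), so the calls after thrombin and after TRAP with toxin were lost. Against all 6 basal arrays the thrombin change was 0.38 (adjusted p = 0.0463), by limma.

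Enah (Mena) and Vasp, related proteins that hold filament ends open for elongation, both rose after thrombin. Enah went from 435.2 and 354.4 to 542.7 and 573.8 after thrombin, from 472.5 and 466.8 to 593.3 and 693.9 after TRAP, and from 441.5 and 441.3 to 708.7 and 635.6 after TRAP with toxin. All 6 stimulated arrays of Enah lay above all 6 basal arrays. Its changes were 0.49 ± 0.12 (adjusted p = 0.0272), 0.44 ± 0.12 (adjusted p = 0.0521) and 0.59 ± 0.12 (adjusted p = 0.0159), by limma, with TRAP alone just short of the threshold. The Enah call after thrombin was lost without basal thrombin replicate 2 (0.35, adjusted p = 0.127), thrombin replicate 1 (0.53, 0.109) or thrombin replicate 2 (0.45, 0.191). With toxin it was lost without either basal array (0.59, 0.064 and 0.0935) and without TRAP after PTX replicate 1 (0.51, 0.133), and it was also lost without the pair of arrays named above (0.51, 0.117), by limma. The second tested Enah probe set, a dim one at a mean signal of 66.9, gave 0.48, -0.04 and 0.05 with no call, and with the mean of the probe sets the change with toxin was 0.32 and was not called (adjusted p = 0.201, limma).

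Vasp went from 1490.8 and 1438.1 to 2188.6 and 2152.8 after thrombin, a log2 change of 0.56 ± 0.09 (adjusted p = 0.00182, limma). After TRAP it went from 1352.5 and 1218.5 to 1518.2 and 1569.8, and with toxin from 1524.6 and 1414.4 to 1611.1 and 1645.9. The stimulated arrays lay above the basal arrays in each experiment, but the changes of 0.26 ± 0.09 and 0.15 ± 0.09 did not pass the test (adjusted p = 0.13 and 0.417, limma). Diaph1, a formin that nucleates and elongates filaments, had low signals of 69.3 and 108.3 before and 159.2 and 177.3 after thrombin, a change of 0.84 ± 0.19 (adjusted p = 0.02, limma). Its thrombin arrays lay within the 139.5 to 187.8 of the other 4 basal arrays, and the change was 0.32 against all 6 basal arrays (adjusted p = 0.126, limma). The Diaph1 call was lost without basal thrombin replicate 1 (0.57, adjusted p = 0.19), thrombin replicate 1 (0.91, 0.0818) or thrombin replicate 2 (0.77, 0.16), by limma. After TRAP and TRAP with toxin Diaph1 changed by -0.07 and -0.05, with overlapping arrays.

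The branching genes gave no call in a single experiment. Arpc5, a subunit of the Arp2/3 complex, went from 3025.7 and 2509.2 to 3030.9 and 2818.8 after thrombin, from 2325.8 and 2366.2 to 2736.5 and 3093.2 after TRAP, and from 2597.1 and 2268 to 3199.8 and 3051 after TRAP with toxin. Its arrays overlapped after thrombin and separated in the other experiments. It changed by 0.08 after thrombin, 0.31 after TRAP and 0.36 after TRAP with toxin, and the mean of the 3 responses, 0.25 ± 0.06, passed the test (adjusted p = 0.0181, limma). This call of Arpc5 was lost in 5 of 25 alternative settings, at adjusted p up to 0.0578. These were the fit without the intensity trend and the fits without basal TRAP replicate 1, basal TRAP after PTX replicate 2, thrombin replicate 1 or TRAP replicate 2. In that average 16 of the 37 genes were higher and 0 lower, against 5.80% and 8.98% of all genes. A call in the average does not mean a rise in each experiment. The 16 include Fhl2 (0.17, adjusted p = 0.0303, limma), whose changes after TRAP and after TRAP with toxin were -0.13 and -0.06. The average call of Fhl2 was lost in 14 of 25 alternative settings. Arpc2, another subunit, stayed between 4313.3 and 4763.9 on all 12 arrays. Cttn (cortactin), which stabilises branches, changed by 0.00, 0.20 and -0.03 and was not called in any response.

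**Figure D3:**
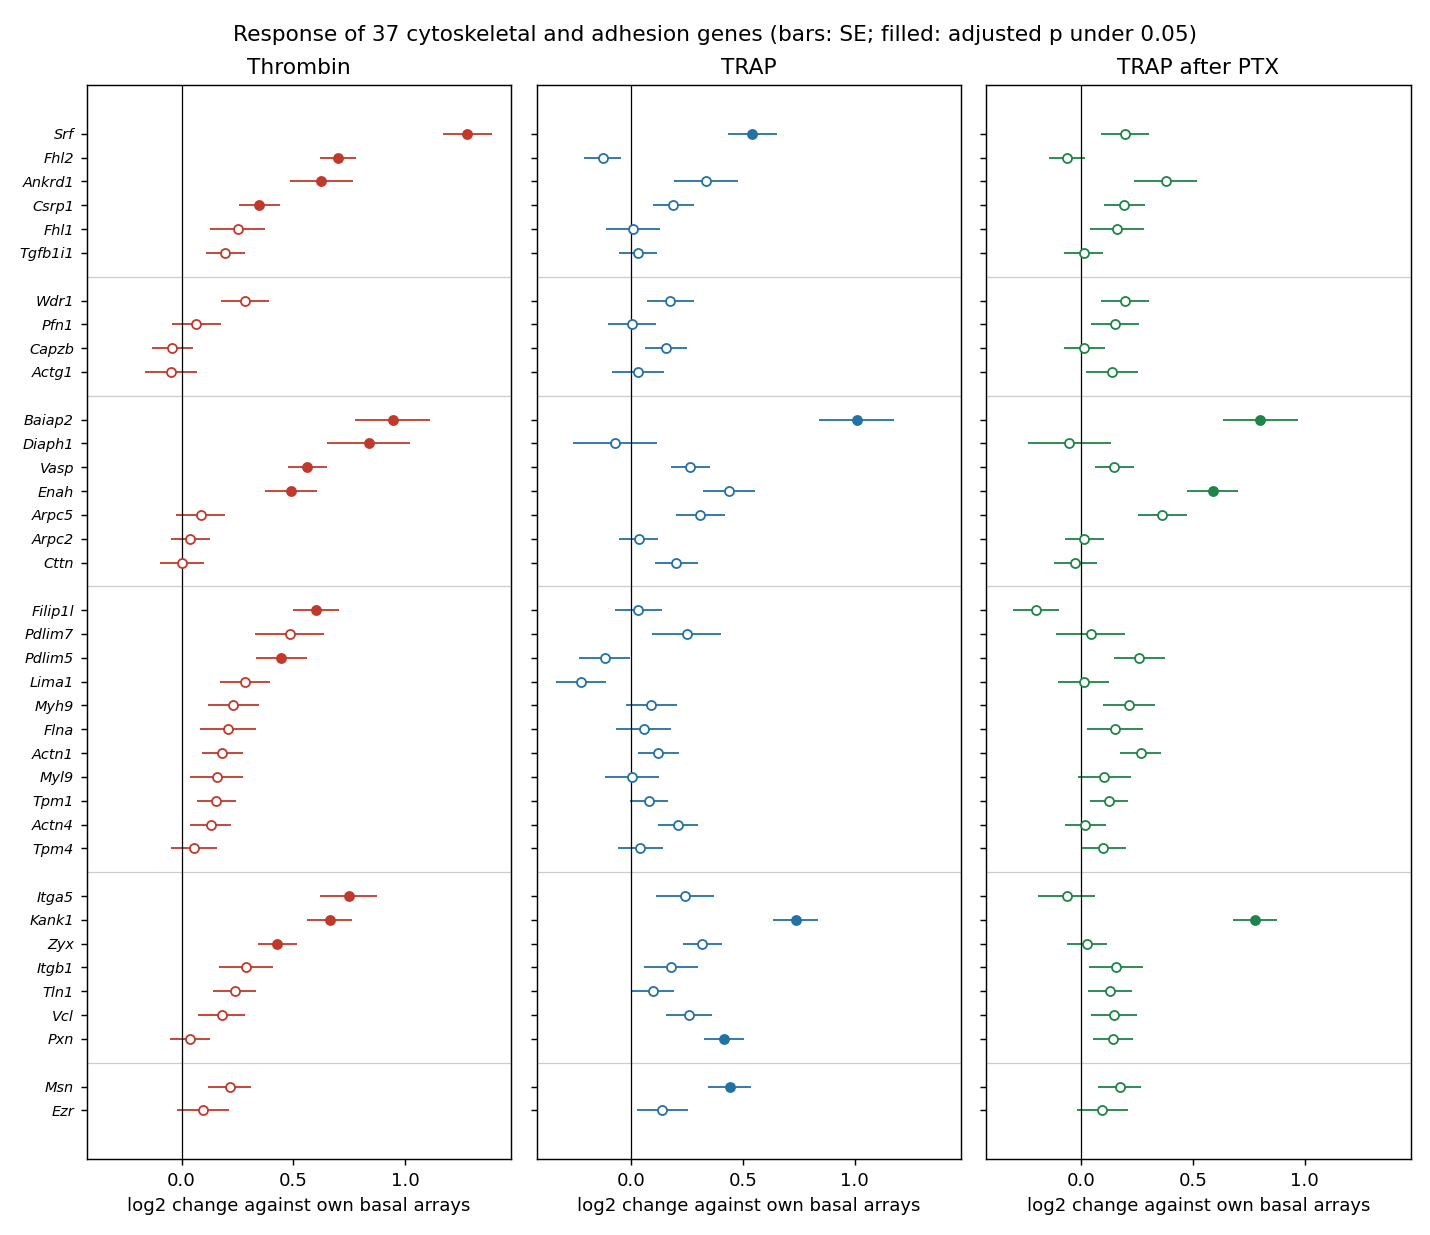
Log2 change against the group's own basal arrays (horizontal axis) with its standard error for the 37 genes, grouped by role and sorted by the thrombin response, in the thrombin, TRAP and TRAP after PTX experiments. Filled points passed an adjusted p of 0.05 (13, 5 and 3 genes), and no gene passed below zero.

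Among the 7 integrin adhesion genes 3 rose after thrombin, 2 after TRAP and 1 after TRAP with toxin, and 5 rose in the average. Kank1, which sits at the rim of adhesions, binds talin and links them to microtubules, rose to a like extent in every experiment. Its signal went from 1082.4 and 1122 to 1731.5 and 1776.2 after thrombin, from 1330.4 and 1162.9 to 1921.2 and 2253.7 after TRAP, and from 1142.1 and 1205.5 to 2040.2 and 2005.1 after TRAP with toxin. All 6 stimulated arrays lay above all 6 basal arrays. The changes were 0.66 ± 0.10 (adjusted p = 0.00134), 0.73 ± 0.10 (adjusted p = 0.000829) and 0.78 ± 0.10 (adjusted p = 0.000693), by limma. Without the pair of arrays named above the later 2 were 0.85 (adjusted p = 0.00251) and 0.76 (adjusted p = 0.00801), by limma, and the Kank1 calls held in all 26 alternative settings.

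Itga5, the alpha chain of the fibronectin receptor, had a low signal and rose after thrombin, from 180.3 and 163.2 to 303.3 and 294.9, a change of 0.75 ± 0.13 (adjusted p = 0.00378, limma). After TRAP it had 181.5 and 191.9, from 175.1 and 138.1, and after TRAP with toxin 187.8 and 194.1, from 192.7 and 208.5. Both thrombin arrays lay above all other arrays, and the changes of 0.24 ± 0.13 and -0.06 ± 0.13 in the other experiments did not pass the test (adjusted p = 0.389 and 0.843, limma). Its partner chain Itgb1 changed by 0.29, 0.18 and 0.16 without a call. On the basal arrays of the thrombin experiment Itgb1 had 2717.5 and 3677.4, a wider gap than in any other pair. The second Itgb1 probe set had 1722.7 and 1786.5 there and changed by 0.33, 0.24 and 0.18 without a call. In the average it was called (0.25, adjusted p = 0.00553, limma), where the brightest was not (0.21, adjusted p = 0.0694, limma).

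Zyx (zyxin), a LIM protein that moves between adhesions and the nucleus, went from 1640.6 and 1527.7 to 2085.2 and 2189.1 after thrombin, 0.43 ± 0.09 (adjusted p = 0.0123, limma). In the TRAP experiment it went from 1610.4 and 1649.2 to 1950.8 and 2121, and in the toxin experiment from 1823.5 and 1890.7 to 1952.8 and 1828.7. The arrays separated after TRAP (0.32 ± 0.09, adjusted p = 0.0636, limma) and overlapped with toxin (0.03 ± 0.09). The Zyx call was lost without basal thrombin replicate 2 (0.38, adjusted p = 0.054), thrombin replicate 1 (0.46, 0.0622) or thrombin replicate 2 (0.39, 0.126), by limma.

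Pxn (paxillin), a scaffold of focal adhesions, passed the test after TRAP and not after thrombin. It went from 641.1 and 718.1 to 920.3 and 899 after TRAP, 0.41 ± 0.09 (adjusted p = 0.0186, limma), and from 985 and 967 to 1017.1 and 988.2 after thrombin, 0.04 ± 0.09. The basal arrays of the thrombin experiment were already above both TRAP arrays, and the difference between the responses, -0.38, did not pass the test (adjusted p = 0.279, limma). Against all 6 basal arrays the TRAP change of Pxn was 0.18 and was not called (adjusted p = 0.119, limma). Msn (moesin), which ties filaments to the membrane, went from 2753.3 and 2412.3 to 3628.3 and 3375.7 after TRAP, 0.44 ± 0.10 (adjusted p = 0.0203, limma), and changed by 0.22 ± 0.10 after thrombin, and the difference of -0.22 did not pass the test (adjusted p = 0.645, limma). With the mean of its probe sets the TRAP change of Msn was 0.36 (adjusted p = 0.0682, limma). Without the pair of arrays named above the TRAP changes were 0.40 for Pxn (adjusted p = 0.115, limma) and 0.39 for Msn (adjusted p = 0.17, limma). Single arrays also ended these calls: Pxn without basal TRAP replicate 1 (0.33, adjusted p = 0.224), TRAP replicate 1 (0.40, 0.0977) or TRAP replicate 2 (0.43, 0.0812), and Msn without basal TRAP replicate 2 (0.34, 0.217), TRAP replicate 1 (0.39, 0.142) or TRAP replicate 2 (0.49, 0.0659), by limma. Ezr (ezrin), the other membrane linker, changed by 0.10, 0.14 and 0.09. Vcl (vinculin) and Tln1 (talin), which couple integrins to actin, were not called in a single experiment. Vcl went from 6181.3 and 6616 to 6893.8 and 7608.9 after thrombin, from 7014.2 and 6438.8 to 8479.7 and 7610.9 after TRAP, and from 6076.1 and 6892.6 to 7315.1 and 7010.3 after TRAP with toxin. Each stimulated pair lay above its basal pair, and the average response of Vcl, 0.19, lay just past the threshold (adjusted p = 0.0483, limma). That call was lost in 17 of 25 alternative settings, at adjusted p up to 0.237, among them the omission of any 1 array other than basal thrombin replicate 2 and basal TRAP after PTX replicate 2. The other tested Vcl probe sets gave -0.27 and -0.04 after TRAP, and 0.27 and 0.65 after TRAP with toxin, the last of them called (adjusted p = 0.0437, limma). Tln1 changed by 0.24, 0.09 and 0.13.

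Among the 11 genes for filament binding, crosslinking and myosin, 2 rose after thrombin and 0 in the other experiments, where 1 (TRAP) and 2 (TRAP with toxin) had an unadjusted p under 0.05 (limma). Filip1l, a filamin-interacting protein homologue, went from 237.6 and 262.1 to 393.7 and 381.3 after thrombin, 0.60 ± 0.10 (adjusted p = 0.00378, limma). Its other basal arrays lay between 489.7 and 605, above both thrombin arrays, and against all 6 basal arrays the thrombin change was -0.13. After TRAP it changed by 0.03 with overlapping arrays, and after TRAP with toxin it had 554.2 and 480.4, from 587.2 and 605. Pdlim5 (ENH), a PDZ-LIM adaptor at the actin crosslinker alpha-actinin, went from 932 and 819.8 to 1257.2 and 1138.9 after thrombin, 0.45 ± 0.11 (adjusted p = 0.0413, limma). Both thrombin arrays of Pdlim5 lay above all other arrays, which ran from 639.9 to 932. Pdlim7 (enigma), another PDZ-LIM protein, went from 1131.2 and 1086.9 to 1574.2 and 1539.8 after thrombin. Its arrays separated, but its change of 0.48 ± 0.15 did not pass the test (adjusted p = 0.0966, limma), and it changed by 0.25 and 0.04 in the other experiments with overlapping arrays. The Pdlim5 call was lost without any of the 4 arrays of the thrombin experiment, with changes of 0.36 to 0.54 (adjusted p of 0.0649 to 0.269, limma), and also without either basal TRAP array (0.45, 0.0593 and 0.0596) or either TRAP after PTX array (0.45, 0.0535 and 0.0537), and with the mean of its probe sets the change was 0.22 (0.271).

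The abundant structural genes moved little. Actg1, cytoplasmic gamma-actin, ran from 7758.9 to 9242.7 on the thrombin experiment's arrays and from 9277.3 to 11728.8 on the others, with changes of -0.05, 0.03 and 0.14. The 3 beta-actin control probe sets changed by -0.04 to 0.17 over the 3 experiments, and the probe set that Cfl1 shares with Cfl1l1 changed by 0.21, 0.00 and 0.06, none of them tested. Pfn1 (profilin), which delivers actin monomers, changed by 0.07, 0.00 and 0.15, and Capzb, a subunit of capping protein, by -0.04, 0.15 and 0.01. Tpm1 and Tpm4 (tropomyosins), Myh9 and Myl9 (nonmuscle myosin heavy chain and regulatory light chain), Flna (filamin A) and Actn4 (an alpha-actinin) had changes between 0.00 and 0.23 with no call. Actn1, the other nonmuscle alpha-actinin, and Wdr1, which helps cofilin take filaments apart, passed only in the average, with 0.19 (adjusted p = 0.0327, limma) and 0.22 (adjusted p = 0.032, limma). Actn1 went from 3215.5 and 3050.7 to 3641.5 and 3468 after thrombin, from 4611.3 and 5111.3 to 5355.6 and 5196.9 after TRAP, and from 4567.3 and 4832.6 to 5414.2 and 5894 after TRAP with toxin. Wdr1 went from 2024.9 and 1675.7 to 2344.6 and 2153.8, from 1900.9 and 2178.9 to 2232.1 and 2366.3, and from 2175.4 and 2072.2 to 2402.6 and 2465.8 in the same order. Both genes had each stimulated pair above its basal pair, but the average calls rested on single arrays. That of Actn1 was lost in 12 of 25 alternative settings (adjusted p up to 0.103), among them the omission of any 1 array other than basal thrombin replicate 1, basal TRAP replicate 2, basal TRAP after PTX replicate 2 and TRAP after PTX replicate 1. That of Wdr1 was lost in 11 of 25 (adjusted p up to 0.104), among them the omission of basal thrombin replicate 2, basal TRAP replicate 1, basal TRAP after PTX replicate 2, thrombin replicate 1, TRAP replicate 2 or either TRAP after PTX array. The call of Actn1 depended on the probe set: its second gave 0.48 after thrombin (adjusted p = 0.00555, limma) and 0.36 after TRAP with toxin (adjusted p = 0.043, limma), where the brightest gave 0.18 and 0.27 with no call. Lima1 (EPLIN), a filament-bundling LIM protein, went from 3018.8 and 3918.2 to 4233.6 and 4144.9 after thrombin and from 5699 and 5881.8 to 4709.1 and 5200.5 after TRAP, and neither change passed the test.

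The calls fell on the dimmer genes. Of the 8 genes with a mean signal under 1000, 7 rose after thrombin, of the 17 between 1000 and 3000 it was 6, and of the 12 above 3000 it was 0. Among all genes the shares that rose after thrombin were 2.75%, 4.73% and 2.10% in the same ranges. These counts rest on the brightest probe set of each gene. Fhl1 and Actn1, both above 3000, had a dimmer probe set that was called after thrombin (0.60 and 0.48, adjusted p = 0.00562 and 0.00555, limma). The median thrombin response of the 37 genes was 0.68, 0.24 and 0.18 from the dimmest to the brightest range, where all genes had -0.07, -0.02 and -0.02. The standard error of a response over the 37 genes had a median of 0.11 and ran from 0.08 to 0.19.

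Thrombin and TRAP were compared by the difference between their responses. Fhl2 alone of the 37 genes passed this test, with a thrombin response larger than its TRAP response by 0.83 ± 0.12 (95% confidence interval 0.58 to 1.08, adjusted p = 0.00506, limma). Among all genes 0.252% were higher and 0.262% lower in this comparison. The other Fhl2 probe set gave 0.86 (adjusted p = 0.0171, limma), and the call was lost without the intensity trend (adjusted p = 0.0567). Srf came close, with a difference of 0.74 (interval 0.41 to 1.07, adjusted p = 0.0535, limma), and 9 of the 37 had an unadjusted p under 0.05. For Baiap2 and Kank1, which rose in both, the intervals were -0.57 to 0.45 and -0.37 to 0.23. Of the 13 genes called after thrombin, 9 were below the threshold in both TRAP experiments, but apart from Fhl2 none of these 9 was shown to differ between thrombin and TRAP. The doses of thrombin and TRAP are not on a common scale. Each agonist also had its own experiment, and basal levels differed between the experiments. Fhl2 (adjusted p = 0.0187) and Srf (adjusted p = 0.0487) were among the genes that differed, by the limma F test over the basal groups. A difference between the agonists therefore cannot be told apart from a difference between the experiments.

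The PTX effect, the TRAP response with toxin minus that without, passed the test for 0 of the 37 genes, against 0.0909% of all genes higher and 0.00% lower. The basal arrays of the toxin experiment are not stated to have had the toxin. An effect of 24 h of toxin alone therefore cannot be told apart from the TRAP response with toxin, nor from this difference. The differences ran from -0.35 for Srf to 0.38 for Pdlim5, 3 genes had an unadjusted p under 0.05, and the lowest adjusted p was 0.549, by limma. The 95% confidence intervals of the 37 genes reached from -0.72 to 0.73 at their ends. For Kank1, which rose in both experiments, the difference was 0.04 ± 0.14. Without the pair of arrays named above, the differences ran from -0.61 for Pdlim7 to 0.54 for Pdlim5. That of Baiap2 was -0.56 and that of Srf -0.30 in this setting, while Pdlim7 and Baiap2 each had -0.21 with all arrays. The range and its lowest gene thus depended on these arrays.

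Before stimulation the cells of the thrombin experiment already differed from those of the other experiments. By an F test over the 3 basal groups 24 of the 37 genes differed, against 41.5% of all genes. The basal thrombin arrays were the lowest group for 17 of these 24 genes and the highest for 7. Among all genes these were 2046 and 1946 of the 4109 that differed. Between the basal arrays of the TRAP and toxin experiments 0 of the 37 differed, against 4 of 9906 among all genes, so nearly no gene was called there. Lower in the thrombin experiment were Myh9 (1819.5 and 1810.4, against 3428.4 to 4442.1 on the other 4 basal arrays), Myl9 (1744.5 and 1649.1, against 3044.3 to 3921.5) and Flna (3941.6 and 3878.9, against 6439 to 8169.6). Relative to that group, the basal TRAP arrays were higher by 0.95 ± 0.12, 1.06 ± 0.12 and 0.77 ± 0.13 on the log2 scale. Higher in the thrombin experiment were Ankrd1 (3674 and 3232.3, against 1300.8 to 1509.3), Ezr (2309.7 and 2000.9, against 1050.6 to 1141.2) and Pxn (985 and 967, against 641.1 to 799.3). The basal TRAP arrays stood at -1.29 ± 0.14, -0.96 ± 0.11 and -0.51 ± 0.09 relative to them. The basal thrombin arrays did not overlap the other basal arrays for any of these 6 genes (adjusted p of the F test between 8.39e-06 and 0.00125, limma).

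Crosslinkers and adhesion linkers were also lower in the thrombin experiment. Actn1 had 3215.5 and 3050.7 on the basal thrombin arrays, against 4567.3 to 5111.3 on the other 4, and Actn4 had 1905.9 and 1871.6, against 2345.7 to 2953.7. Tln1 had 966.9 and 939.2, against 1271.9 to 1471.1, and Lima1 had 3018.8 and 3918.2, against 5416.3 to 5881.8. Among the LIM cofactors Fhl1 had 4785.8 and 4014, against 7023.5 to 8396.6, and Tgfb1i1 had 1301.9 and 1238.9, against 1709.5 to 1961. All 6 differed by the F test (adjusted p between 0.00013 and 0.000618, limma), as did Tpm4 (6217 and 5758.6, against 7154.6 to 8152.2, adjusted p = 0.0122, limma) and Itgb1 (2717.5 and 3677.4, against 4084.4 to 4553.7, adjusted p = 0.0135, limma). Csrp1, Diaph1, Baiap2 and Filip1l, whose signals are given above, were lower as well, Filip1l with the smallest adjusted p of the 37 genes (1.8e-06, limma). Srf, Fhl2, Pdlim5 and Msn also passed the F test, at adjusted p of 0.0187 to 0.0487 (limma). On the higher side with Ezr stood Capzb (2786.6 and 2400.2, against 1610.7 to 2014.7, adjusted p = 0.000313, limma) and Cttn (1887.4 and 1690.4, against 1255.2 to 1509.5, adjusted p = 0.0104, limma). Actg1, Pfn1, Wdr1, Arpc2, Arpc5, Enah, Vasp, Tpm1, Pdlim7, Itga5, Vcl, Zyx and Kank1 did not pass the F test (adjusted p of 0.0956 to 0.935, limma).

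Other measures moved with this difference. The summed signal of the 10 smooth muscle contractile markers was 10590.6 to 11003.9 on the basal thrombin arrays, 16220.6 to 18639.6 on the basal TRAP arrays and 16057.4 to 18609.9 on those of the toxin experiment. In bulk RNA fewer cells of a type and less RNA per cell cannot be told apart. The 7 measured adventitial fibroblast markers, 6 of them bright enough to test, summed to 6230.9 to 6526.7, 9873.8 to 10580.8 and 10070.9 to 10121.1. The 8 measured cardiac and skeletal muscle markers, only 3 of them bright enough to test, summed to 4548.2 to 5313.2, 2819.2 to 2951.4 and 2525.7 to 2725.6. Leukocyte markers summed to 603.7 to 688.9 on the basal thrombin arrays against 356.6 to 442.6 on the other basal arrays, and Schwann and neural markers to 491 to 594.2 against 258.8 to 431.6, with 2 genes of either list bright enough to test. Lcn2, an acute-phase gene like Saa3, had 509.7 and 565.6 against 23.5 to 360.2. These sums were thus lower in the thrombin experiment for contractile and fibroblast markers and higher for the cardiac and skeletal, leukocyte and neural markers. The lower median signal and GAPDH ratio given above fall on the same arrays. Mki67, a gene of dividing cells, lay between 232.9 and 333.9 on the thrombin experiment's arrays and between 515.4 and 1095.7 on the others, and the part of these measures in the difference was not tested. After thrombin the contractile marker sum was 12771 to 14429.3, and 1 of its 10 genes was called higher, Cnn1 (calponin), which rose by 0.63 ± 0.10 (adjusted p = 0.00247, limma).

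The thrombin responses were also set against all 6 basal arrays. Of the 13 genes called after thrombin, 9 had both thrombin arrays above all 6 basal arrays, and the exceptions were Csrp1, Diaph1, Baiap2 and Filip1l. Among all genes called higher after thrombin this held for 213 of 294 (72.4%). With all 6 basal arrays as the control, 5 genes were lower after thrombin (Fhl1, Myh9, Myl9, Flna and Actn1, by limma), all of them already lower on the basal thrombin arrays. On the same control 5 genes not called against their own basal arrays were higher. These were Ezr (0.74, adjusted p = 4.99e-05), Pxn (0.32, 0.00403), Capzb (0.30, 0.00741), Cttn (0.23, 0.0375) and Pdlim7 (0.41, 0.0215), by limma, and all but Pdlim7 were already higher on the basal thrombin arrays. On that control the Srf change was 1.41 and the Fhl2 change 0.54.

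**Figure D4:**
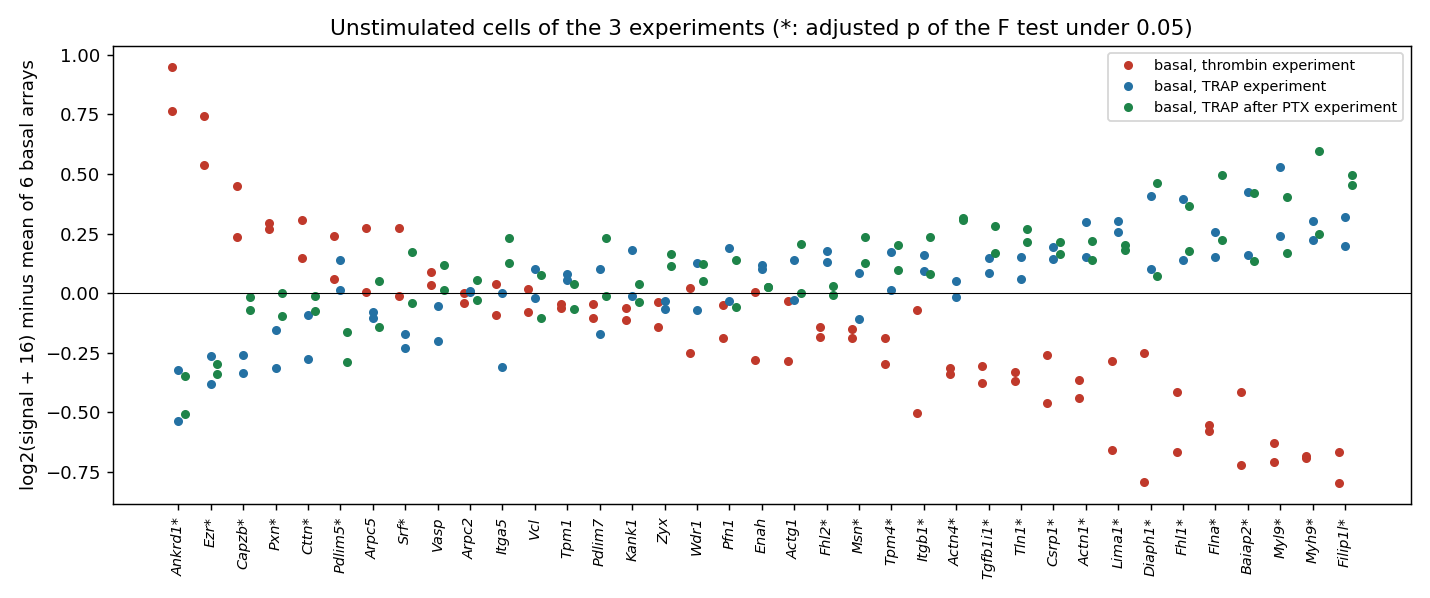
Level of the 37 genes on the 6 basal arrays (points), as log2(signal + 16) minus the gene's mean over these arrays (vertical axis), coloured by experiment and sorted by how much higher the TRAP and toxin experiments lie. Genes with an asterisk (24 of 37) differ between the basal groups by the F test, with Ankrd1 and Ezr highest in the thrombin experiment and Filip1l, Myh9 and Myl9 lowest.

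Other genes of the same machinery, from lists outside the 37, moved in both directions. Of 34 tested further adhesion genes 7 rose and 0 fell after thrombin, 2 rose and 2 fell after TRAP, and 2 rose and 0 fell after TRAP with toxin, with medians of 0.14, 0.03 and 0.05. The shares higher were 20.6%, 5.88% and 5.88%, against 2.97%, 2.15% and 1.69% of all genes, and the shares lower were 0%, 5.88% and 0%, against 2.65%, 1.81% and 1.27%. Ptpn12 (PTP-PEST), a phosphatase that acts on paxillin and its partners, rose by 0.83 ± 0.10, 0.58 ± 0.10 and 0.64 ± 0.10 (adjusted p = 0.000391, 0.00649 and 0.00537, limma). Bcar1 (p130Cas), an adhesion scaffold and substrate of that phosphatase, rose by 0.90 ± 0.13 after thrombin (adjusted p = 0.00111, limma), and Fermt2 (kindlin) by 0.35. Tes (testin), a zyxin partner, rose by 0.49 after TRAP with toxin. Palld (palladin) and Nexn (nexilin), actin-binding proteins of this list that were picked out after their values were seen, had different responses in the thrombin and TRAP experiments. Palld went from 1509.4 and 1260.4 to 2128.2 and 1838.4 after thrombin and from 3120.9 and 2954.8 to 2029.8 and 1761.5 after TRAP, so that it rose by 0.52 after thrombin and fell by 0.68 after TRAP. The basal levels of Palld thus already differed between these experiments. A difference between the agonists cannot be told apart from that basal difference. The thrombin minus TRAP difference was 1.19 ± 0.16 for Palld (adjusted p = 0.0048, limma) and 0.96 ± 0.14 for Nexn (adjusted p = 0.00724, limma), the only ones of the 34 to pass, and the TRAP change of Nexn itself, -0.22, did not pass.

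Of 42 tested further actin filament genes 1 rose and 1 fell after thrombin, 0 passed after TRAP, and 1 rose and 0 fell after TRAP with toxin, by limma. A single gene is 2.38% of this list, near the 2.97% higher and 2.65% lower among all genes after thrombin and the 1.69% higher after TRAP with toxin. At an unadjusted p under 0.05, 1 was higher and 1 lower after TRAP. Flnc, the muscle filamin, went from 1213.1 and 1391.8 to 3224.3 and 3119.1 after thrombin, 1.28 ± 0.17 (adjusted p = 0.000675, limma), the same size as the Srf response. After TRAP it changed by 0.61 and with toxin by 0.44, without passing the test. Mical2, an enzyme that oxidises actin, rose by 0.70 after TRAP with toxin (adjusted p = 0.0291, limma), and Arpc5l, an alternative Arp2/3 subunit, fell by 0.41 after thrombin (adjusted p = 0.0246, limma). Acta1, skeletal muscle actin, stands in the cardiac and skeletal marker list and rose by 1.17 ± 0.15 after thrombin (adjusted p = 0.000565, limma), from 140.4 and 153.2 to 353.3 and 347.

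The probe sets of a gene could be compared for 19 of the 37. Of the 6 of these 19 genes whose brightest probe set was called after thrombin, all 6 had a second probe set of the same sign and 2 of those were called as well. After TRAP it was 3 genes with 3 of the same sign and 1 called. For Srf the second probe set, at a mean signal of 71.9, gave 0.52 after thrombin and was not called (adjusted p = 0.113, limma). A further 17 genes have a single probe set of their own symbol, and Diaph1 has another that was not bright enough to test. Kank1, Vasp and Itga5 are among those whose calls rest on 1 probe set.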

How the data were processed

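Biotin-labelled RNA of each sample was measured on its own 1-colour array. The authors deposited array intensity, not log-transformed, from GCOS 1.4 per the submitters' processing notes. With 2% trimmed at each end, the mean of every array lay between 198.929 and 199.938, so each array had been scaled. Detection calls were not used here. The precision is limited by the 2 arrays of a group.

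Signals were taken as log2(signal + 16), which shrinks the changes of genes with low signal. After 57 control probe sets were dropped, the tests used the 18625 of 31099 probe sets whose mean log2 signal exceeded the 40th percentile. A gene was represented by its brightest probe set among those with exactly 1 symbol in the array annotation (20826 probe sets, with 436 of several symbols and 9780 of none). A single limma model (version 3.58.1, R 4.3.3) covered all 12 arrays, by lmFit and by eBayes with trend, with 6 residual degrees of freedom. The contrasts were each stimulated group against its own basal group, the average of the 3 responses, thrombin minus TRAP response, and TRAP with toxin minus TRAP response, called the PTX effect. Basal groups were compared by an F test. P-values are 2-sided, adjusted by Benjamini-Hochberg across all tested probe sets, and called at 0.05. The fit was tested on simulated data with known changes.

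The 37 genes and all gene lists were chosen with earlier results of these data known. Genes of the list past the threshold in a contrast or the F test were to be named, with up to 2 more per role and up to 4 per pathway list by the p of the average, and others named from these lists (Palld, Nexn, Cnn1 and Acta1 among them) were picked after their values were seen or for their role. Another pathway list is not reported here. Saa3 and Mki67 came from the earlier results. Promoter sequences are those of RefSeq (GRCr8), matched by symbol. The files name no genome build.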

Additional observations from a re-analysis of the deposited data

Results flagged for a closer look

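Responses that differed between the agonist experiments are given here, and in them agonist and experiment cannot be told apart. Fhl2 had a larger thrombin than TRAP response, by 0.83 on the log2 scale in the test of the difference. Every array of Fhl2 lay above its basal arrays after thrombin (0.70) and below them after TRAP (-0.13) and after TRAP with toxin (-0.063), and the thrombin difference from TRAP with toxin was not tested. Lima1 went up on both thrombin arrays (0.28) and down on both TRAP arrays (-0.23), and the difference of 0.51 did not pass the test (adjusted p = 0.231, limma). Filip1l went up on both thrombin arrays (0.60) and down on both arrays of TRAP with toxin (-0.20), a difference that was not tested.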

How the results depend on the processing

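Over 26 alternative settings, 14 of 38 calls on the 37 genes held in every setting they were run in, among them the thrombin responses of Srf, Fhl2, Itga5, Vasp and Kank1. The alternatives were run for the 37 genes and not for the other lists. Without the intensity trend the genes higher were 8 after thrombin, 2 after TRAP, 1 after TRAP with toxin, 10 in the average and 0 in thrombin minus TRAP. With all 6 basal arrays as the control they were 12 after TRAP and 17 after TRAP with toxin, 5 genes were lower after thrombin, and Csrp1 (-0.013) and Filip1l (-0.13) changed direction. With the mean of a gene's probe sets 3 were higher and 1 lower after TRAP. In thrombin minus TRAP, a pseudocount of 64, a filter at the 60th percentile, quantile normalization and array weights each gave 2 genes. Without TRAP replicate 1 and TRAP after PTX replicate 1, a setting chosen after seeing the data as was a block for the sets of arrays, 2 genes were higher after TRAP and 1 after TRAP with toxin. The cause of these shifts was not tested.

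Leaving out each array in turn gave 7 to 12 genes higher after thrombin (7 without either thrombin array, 8 without basal thrombin replicate 1), 2 to 6 after TRAP (2 without basal TRAP replicate 1 or either TRAP array, 3 without basal TRAP replicate 2), 1 to 3 after TRAP with toxin (1 without its basal replicate 2 or stimulated replicate 1), 10 to 16 in the average (10 without basal TRAP replicate 1 or thrombin replicate 1), 1 to 3 in thrombin minus TRAP (3 without basal thrombin replicate 2) and 18 to 23 between basal groups. An array left alone in its group is assumed to vary like the others. With the replicate number as a block 12, 5 and 3 genes were higher in the 3 responses, and the pairing by number had correlations of 0.13, 0.10 and 0.02, so the numbers are not shown to pair the arrays. Among all genes the split of higher to lower calls moved with scaling: 294 to 263 as deposited, 353 to 175 with median centring and 280 to 174 with quantile normalization after thrombin, 213 to 179, 273 to 109 and 258 to 155 after TRAP, and 167 to 126, 211 to 76 and 181 to 115 after TRAP with toxin.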
